A study of Mus musculus with 12 samples.

Results

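Cathepsin E is 1 gene, Ctse, of the 756 measured in the hippocampus of 12 mice, which formed 3 groups of 4. It was chosen by its measured values in these same mice, where it had the largest difference between vehicle-treated 5xFAD and non-transgenic mice, so its own levels and differences are given here as a description with no test. The 3 groups were non-transgenic littermates on vehicle, 5xFAD mice on vehicle, and 5xFAD mice on TPPU, an inhibitor of soluble epoxide hydrolase. TPPU was given in the drinking water at 3 mg/kg for 2.5 months from 2 months of age, dissolved in 1% polyethylene glycol, and the vehicle was that solvent alone. 5xFAD mice carry transgenes driven by the neuronal Thy1 promoter and develop amyloid plaques; the transgenes were not analysed here, so the genotype labels have no check of their own. RNA was counted with the nCounter Mouse Neuroinflammation panel, which counts single molecules with colour-coded probes and no amplification. Per the labels' protocols, the authors scaled the counts of each mouse to 10 housekeeping genes, and "normalized counts" below are these scaled values.

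Cathepsin E is an aspartic protease of the pepsin family that works in acidic endosomes. Most other cathepsins of immune cells, such as cathepsin S, are cysteine proteases. Cathepsin E is known from dendritic cells, B cells, gastric epithelium and red cell precursors, and from activated microglia, the resident macrophages of the brain, and it takes part in cutting proteins for antigen presentation. Microglia that gather at amyloid plaques switch on a set of genes around the lipid-sensing receptor Trem2 and its adaptor Tyrobp.

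Ctse was low in each non-transgenic mouse and high in each vehicle-treated 5xFAD mouse. The non-transgenic mice stood at 31.4, 32.8, 17.9 and 33.4 normalized counts (mice 1 to 4), a mean of 28.9 ± 7.34 (SD, n = 4). The vehicle-treated 5xFAD mice stood at 463, 1237, 1780 and 539.9, a mean of 1005 ± 623 (SD, n = 4). The 2 groups did not overlap: the lowest 5xFAD vehicle mouse lay far above the highest non-transgenic mouse. Such a separation, with 5xFAD vehicle above, was found in 150 of 695 tested genes. On the log2(value + 1) scale the means were 9.75 and 4.86, a difference of 4.89 (SE 0.51) as deposited. Among the 695 tested genes the next was Cst7, at 4.05. All 4 non-transgenic values of both genes lay under 33.5 normalized counts, a level described below at which a value is not shown to be above background. With every value under 33.5 raised to it, an alternative chosen after seeing the data, Ctse was higher by at least 4.65 on the log2 scale, which was still the largest difference, and the next gene was Mpeg1 at 3.38.

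Among the 4 mice on TPPU, only mouse 3 had a Ctse level in the range of the vehicle-treated 5xFAD mice. Mice 1 to 4 stood at 36.2, 27.7, 479 and 43.2 normalized counts, a mean of 147 ± 222 (SD, n = 4) that describes none of them. Mice 1, 2 and 4 lay under all 4 vehicle-treated 5xFAD mice and within 10 normalized counts of the highest non-transgenic mouse. Mouse 3 lay just above vehicle mouse 1, so the 2 groups of 5xFAD mice overlapped through this 1 animal. On the log2 scale TPPU minus vehicle in 5xFAD mice was -3.64 (SE 1.05), the lowest of 695 genes, and the second lowest was Cd74 at -2.35. TPPU minus non-transgenic was 1.25 (SE 0.96), and those groups also overlapped. Both comparisons with vehicle-treated 5xFAD mice share the mice whose high levels led to the choice of Ctse. Without TPPU mouse 3 the difference from vehicle was -4.58 and that from non-transgenic mice 0.32, and without TPPU mouse 2 they were -3.22 and 1.67. By mean level the groups ran from non-transgenic over 5xFAD TPPU to 5xFAD vehicle. The first 2 of these did not differ beyond the spread of the TPPU group, and the spread of that group also took in the lowest vehicle-treated mouse.

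**Figure D1:**
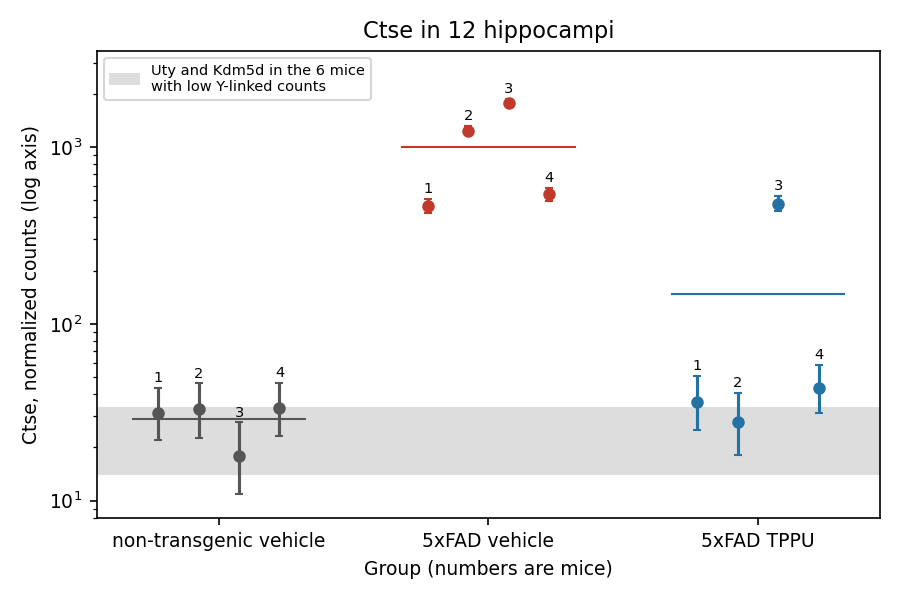
Ctse in each mouse, in normalized counts on a log axis; points are mice with their numbers, bars are 95% Poisson counting intervals, horizontal lines are arithmetic group means, and the grey band is the range of Uty and Kdm5d in the 6 mice with low Y-linked counts. Vehicle-treated 5xFAD mice sit between 463 and 1780, TPPU mouse 3 at 479, and the other 3 TPPU mice between 27.7 and 43.2, beside the non-transgenic mice.

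The low values of Ctse lay near the bottom of the panel. Only 136 of the 756 genes had a lower mean than Ctse in non-transgenic mice, against 278 in TPPU-treated and 536 in vehicle-treated 5xFAD mice. Uty and Kdm5d lie on the Y chromosome, and in 6 mice, 2 per group, they stood at 14.2 to 33.5 normalized counts against 306 to 518 in the other 6. The labels give all mice as males, which the low values of those 6 contradict. The non-transgenic Ctse values of 17.9 to 33.4 lay in that low range, as did TPPU mouse 2 at 27.7, and TPPU mice 1 and 4 lay just above it. The background of the Ctse probe itself is not known, so the size of the difference between genotypes is given as a lower bound. All values were whole multiples of 1 factor per mouse. Divided by that factor, Ctse came to 20 to 36 in non-transgenic mice and 490 to 1613 in vehicle-treated 5xFAD mice. In TPPU mice 1 to 4 it came to 34, 26, 438 and 42, of totals of 1050334 to 1314362 per mouse. These numbers are taken here as counts, which the sources do not state. The exact 95% Poisson intervals, which cover counting error only, were 25.1 to 50.6, 18.1 to 40.7 and 31.2 to 58.4 normalized counts in TPPU mice 1, 2 and 4. Those of mice 1 and 2 overlapped the intervals of all 4 non-transgenic mice, and that of mouse 4 those of non-transgenic mice 1, 2 and 4 but not that of mouse 3, 10.9 to 27.7. The interval of TPPU mouse 3 ran from 435 to 526.

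The spread of Ctse within groups was among the largest on the panel in 5xFAD mice. Its SD on the log2 scale was 1.88 in the TPPU group, the sixth largest of 695 genes (rank 6), against a median of 0.21 over those genes. In vehicle-treated 5xFAD mice it was 0.93 (rank 18, median 0.27), and in non-transgenic mice 0.41 (rank 80, median 0.20). On vehicle, 5xFAD mice 1 and 2, with low Y-linked counts, stood at 463 and 1237 in Ctse. Vehicle mice 3 and 4, with high ones, stood at 1780 and 539.9. On TPPU, mice 2 and 3, with low Y-linked counts, stood at 27.7 and 479, and mice 1 and 4, with high ones, at 36.2 and 43.2. Whether Ctse differs with the Y-linked level was not tested. Ttr, a transcript of choroid plexus, stood at 4270 in vehicle mouse 1 and 16461 in non-transgenic mouse 4, against 77.1 to 284 in the other 10 mice. Without these 2 mice the Ctse difference between genotypes was 5.27 and that between TPPU and vehicle -3.94.

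The comparison of genotypes asked what the transgenes change in mice on vehicle, and many of the other myeloid genes of the panel rose with the transgenes. Of 64 measured genes on 5 lists of microglial and macrophage genes, 62 passed a minimum mean of 20. Of these 62, 47 were higher in vehicle-treated 5xFAD mice and 0 lower, at an adjusted p under 0.05 (limma, Benjamini-Hochberg over all 695 genes). Over all tested genes 18.7% were called, 130 higher and 0 lower. The median log2 difference of the 62 genes was 1.35, against 0.13 over all genes. Centring each array on its median moved the median of all genes to -0.15 and gave 102 genes higher and 88 lower, and quantile normalization gave 80 and 104. Of the myeloid genes 44 and 42 were then called higher and 1 and 2 lower, and the Ctse difference was 4.61 and 4.43. In bulk tissue, more cells of a type and more RNA per cell cannot be told apart.

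By role, 16 of 19 plaque-associated genes were called higher (median log2 difference 2.01), as were 10 of 14 genes of homeostatic microglia (0.88). So were 14 of 16 pan-myeloid identity genes (1.36) and 8 of 12 tested Fc and phagocytic receptors (1.80). Of 7 antigen processing genes, the pathway in which cathepsin E takes part, 4 were higher (median 1.43). Of 10 lysosomal and endosomal genes, whose products share its compartment, 4 were higher (median 0.18). Itgam, which encodes the integrin CD11b of myeloid cells, was 2.74-fold higher (log2 difference 1.46, limma adjusted p = 0.00204), and Ptprc, the pan-leukocyte phosphatase CD45, 3.81-fold (1.93, adjusted p = 0.00227). Lilrb4a, an inhibitory receptor of myeloid cells, stood at 21.8 to 34.8 and 119 to 356 normalized counts, at least 5.22-fold higher with values under 33.5 raised to it (adjusted p = 0.00234 on the deposited values), and Olfml3, a secreted glycoprotein typical of microglia, 3.22-fold (1.69, adjusted p = 0.00231). The lists were drawn up with earlier results of these data known, so their counts describe the panel and are no independent support.

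Of a list of 22 other cathepsins, lysosomal and related proteases and cystatins, 6 were measured and 5 tested. Of these 5, 3 were higher in vehicle-treated 5xFAD mice, and the median log2 difference was 0.55. The list was not drawn up to hold every protease or inhibitor of the panel. Ctss, the main cysteine cathepsin of microglia, stood at 2186, 1271, 1516 and 1553 normalized counts in the non-transgenic mice and at 6550, 8141, 11568 and 6321 in the vehicle-treated 5xFAD mice. TPPU mice 1 to 4 stood at 4166, 1794, 7297 and 5413. TPPU mice 1, 3 and 4 thus lay above all non-transgenic mice in Ctss, by a wide margin; for Ctse mouse 1, at 36.2, lay just above the highest of them, at 33.4. Ctss rose 4.94-fold between genotypes (limma adjusted p = 0.00204). Lgmn, the asparaginyl endopeptidase that matures other lysosomal proteases, ran from 2769 to 3604 without the transgenes and from 4010 to 5559 with them on vehicle, and rose 1.47-fold (adjusted p = 0.0167 by limma). Cst7, which encodes cystatin F, an inhibitor of cysteine cathepsins, rose too (adjusted p = 0.00268 by limma). It was at least 7.03-fold higher with values under 33.5 raised to it, against a ratio of 16.5 as deposited. Ctsf, another cysteine cathepsin, ran from 1718 to 2068 and from 1729 to 2343 in these groups and missed the threshold (limma, adjusted p = 0.452). Psen2, a catalytic subunit of gamma-secretase, missed it too (limma, adjusted p = 0.789). Ctsw, a cathepsin of cytotoxic lymphocytes, stood at 8.96 to 26.4 in all 12 mice and lay under the minimum.

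Ctse is also known from cells other than microglia, and the lists of their markers were thinly measured. For dendritic cells, 2 of 15 listed markers were measured, Irf4 and the integrin Itgax, which plaque microglia also express. Their summed level ran from 35.8 to 47.6 normalized counts across the non-transgenic mice, from 46.3 to 202 across 5xFAD mice on vehicle, and from 49.1 to 140.0 across those on TPPU. Of these 2, Itgax was higher between genotypes (at least 2.83-fold with the same floor of 33.5, limma adjusted p = 0.0075). For B cells, 7 of 12 markers were measured, with sums in the same order of groups of 291 to 466, 347 to 546 and 284 to 454, 5 of them under the minimum and 0 of the 2 tested ones called. For T and NK cells, 18 of 23 were measured, with sums of 270.1 to 307, 252 to 331 and 283 to 327, and 0 of 5 tested ones called. Of border-associated macrophages 3 of 11 were measured, with sums of 60.1 to 99.3, 80.1 to 233 and 66.2 to 103, and 0 of 2 called. Neutrophil and monocyte markers had sums of 1168 to 1542, 1645 to 3127 and 1728 to 2363 over 10 genes of 18, and 3 of 7 tested ones were higher. These were Siglecf (at least 3.40-fold with that floor, limma adjusted p = 0.00204), Csf3r (3.17-fold, 0.0395) and Cd24a (1.66-fold, 0.0223). Whether these 3 transcripts came from such cells or from cells of the brain itself was not tested. Of the list for gastric and choroid epithelium, 2 of 11 were measured, Ttr and Epcam, and Epcam stood at 18.3 to 38.2 in all mice. No erythroid marker was measured, and no measured marker of these lists was at 0 in all mice of a group. The part of these cells in the Ctse values was not tested.

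Neuronal and glial transcripts were abundant in all 12 mice, as in brain tissue; markers that set hippocampus apart from other brain regions were not examined. The 20 neuronal and synaptic genes summed to 113931 to 160528 normalized counts per mouse and the 19 oligodendrocyte genes to 50778 to 120913. Of neuronal, oligodendrocyte and endothelial genes 0 of 20, 0 of 19 and 0 of 12 were called between genotypes, with median log2 differences of -0.03, -0.44 and 0.14. Of astrocyte genes 1 of 7 was called, the glutamate transporter Slc1a3 (1.29-fold, limma adjusted p = 0.0282).

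Over all 12 mice, the genes nearest to Ctse were 5 plaque-associated genes and Mpeg1. Nearness was the root mean square difference between 2 genes' log2 profiles, each set to 0 at its own non-transgenic mean. The 6 nearest were Cst7 (1.21), Clec7a (1.26), Mpeg1 (1.27), Ccl3 (1.30), Tyrobp (1.31) and Trem2 (1.36), against a median of 3.03 over the 694 other tested genes. Clec7a encodes the pattern recognition receptor dectin-1, Mpeg1 the pore-forming protein perforin-2 of macrophages, and Ccl3 a chemokine. For Cst7 and Clec7a the profile is set to non-transgenic values that all lie under 33.5, as for Ctse. Those of Ccl3, at 31.4, 24.8, 29.6 and 34.4, lie under or just above that level. These genes follow from the same values that singled out Ctse and are given without a test.

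The nearest genes parted from Ctse in TPPU mice 1 and 4. Cst7 started as low as Ctse, at 18.3, 15.9, 12.5 and 9.54 normalized counts in the non-transgenic mice, and reached 108, 298, 451 and 234 in the vehicle-treated 5xFAD mice. In TPPU mice 1 to 4 it stood at 100.2, 9.60, 194 and 139. Cst7 was therefore well above the non-transgenic range in TPPU mice 1, 3 and 4, and Ctse only in mouse 3. Clec7a stood at 12.2, 10.9, 24.2 and 18.1 without the transgenes, at 168, 334, 658 and 144 on vehicle, and at 124, 8.54, 306 and 146 on TPPU. Trem2 stood at 355, 201, 298 and 292, then at 1413, 2559, 3647 and 2003, and on TPPU at 991, 346, 2240 and 1449. For both receptors TPPU mice 1 and 4 lay far above all non-transgenic mice. As log2 differences from the non-transgenic mean, TPPU mouse 1 had 0.36 for Ctse, 2.78 for Cst7, 2.91 for Clec7a and 1.81 for Trem2. TPPU mouse 4 had 0.61, 3.25, 3.15 and 2.36.

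**Figure D2:**
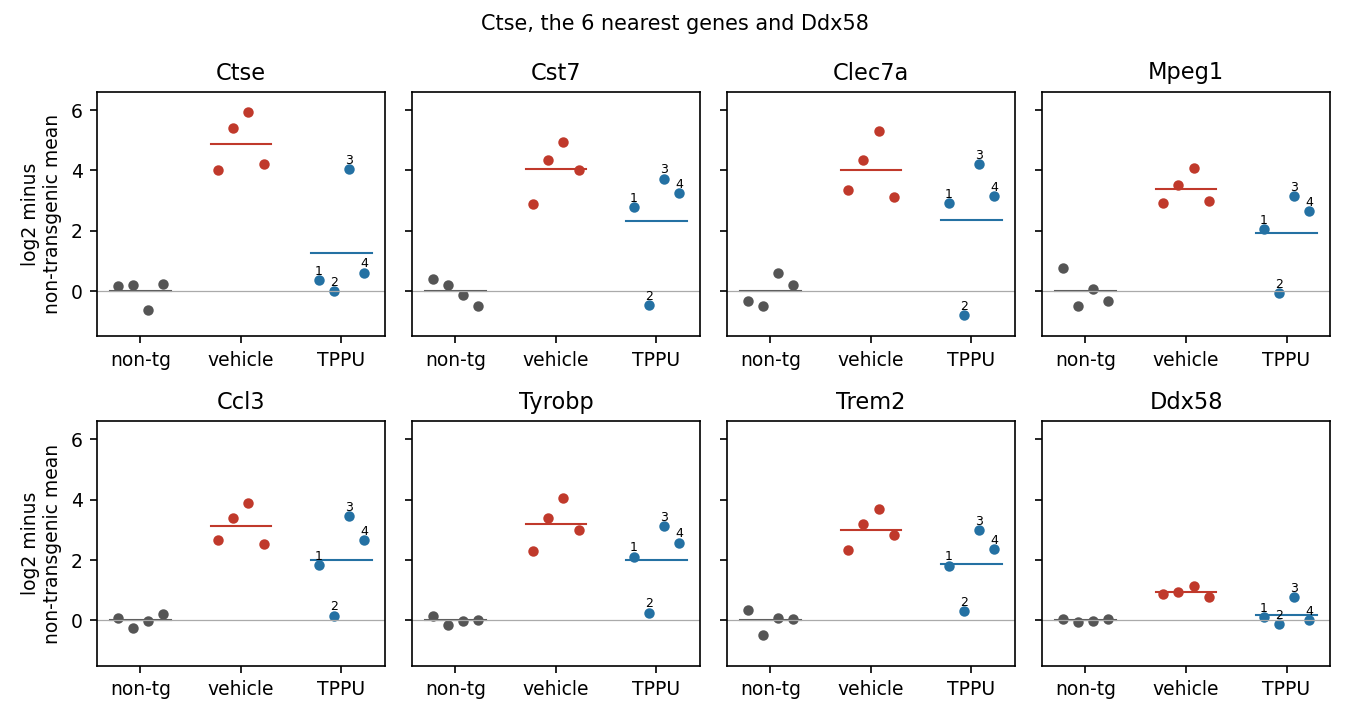
Log2(value + 1) minus the gene's non-transgenic mean for Ctse, its 6 nearest genes and Ddx58, by group; points are mice, short lines are group means, and TPPU mice carry their numbers. TPPU mice 1 and 4 are near 0 for Ctse (0.36 and 0.61) and Ddx58, and between 1.81 and 3.25 for the 6 nearest genes; TPPU mouse 2 lies between -0.80 and 0.30 in all 8 panels.

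The other genes with large differences between genotypes parted from Ctse in the same mice. Besides Ctse, 26 genes had a mean log2 difference above 2 in vehicle-treated 5xFAD mice. In each of the 4 vehicle-treated mice Ctse lay above all 26, which its choice for the largest difference in these mice favours. The 26 were picked on the same vehicle-treated mice, so the counts given here are a description and no support. In TPPU mouse 1 it lay under 24 of the 26, whose median was 1.45, and in TPPU mouse 4 under 25, whose median was 1.74. The exceptions in mouse 1 were Cd74 (-0.04), the MHC class II invariant chain, and Hcar2 (0.17), a receptor for hydroxy acids, named here after its values were seen. Cd74 was also the exception in mouse 4 (-0.06). In TPPU mouse 3, by contrast, Ctse at 4.05 lay above all but 1 of the 26, Clec7a at 4.21. TPPU mouse 2 had a median of 0.15 over the 26 genes, with a range from -1.39 (Cd74) to 0.58. Its genotype could not be checked here.

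**Figure D3:**
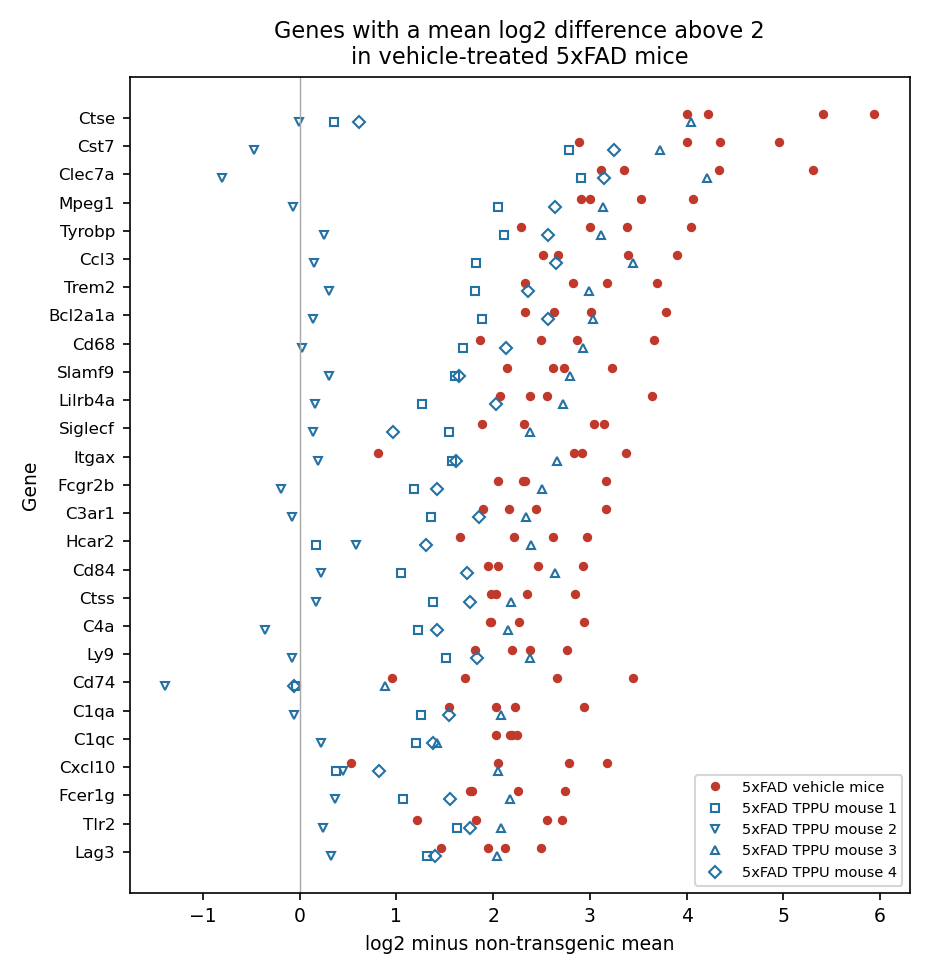
Log2(value + 1) minus the non-transgenic mean for Ctse and the 26 other genes with a mean above 2 in vehicle-treated 5xFAD mice; red points are vehicle-treated and open blue symbols TPPU-treated 5xFAD mice. For Ctse the 4 vehicle-treated mice lie at 4.00 to 5.94 and TPPU mice 1, 2 and 4 at 0.36, -0.01 and 0.61, whereas the other 26 genes have medians of 1.45 and 1.74 in TPPU mice 1 and 4.

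Read by mouse, Ctse and the 19 plaque-associated genes ranked animals alike within both 5xFAD groups but not across them. The order of TPPU mice 1, 2 and 4 in Ctse rests on low counts with overlapping counting intervals and is not resolved. The median of the 19 genes was 1.21, 2.31, 2.71 and 1.95 log2 above the non-transgenic mean in vehicle mice 1 to 4, where Ctse stood 4.00, 5.41, 5.94 and 4.22 above its own. In TPPU mice 1 to 4 the median was 1.32, 0.06, 2.04 and 1.57, and Ctse 0.36, -0.01, 4.05 and 0.61. Vehicle mouse 1 had a lower plaque-associated median than TPPU mice 1 and 4, yet its Ctse count was more than 10 times theirs. Of the 19 genes, TPPU mice 1 to 4 had 16, 4, 19 and 17 above all non-transgenic mice. The matching share of all tested genes was not counted, so these numbers have no background to be read against. Whether this separation of Ctse from the other genes differs between the treatments was not tested, since Ctse was chosen on these values.

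**Figure D4:**
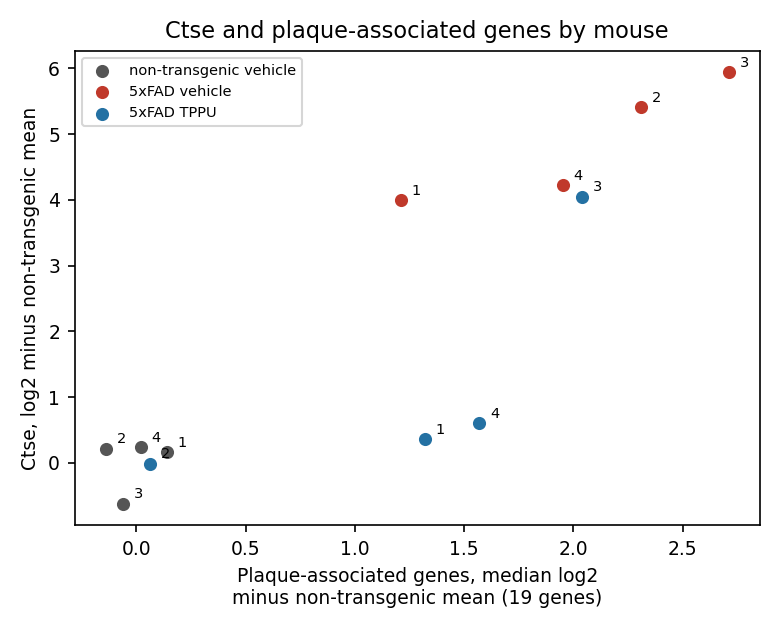
Ctse against the median of 19 plaque-associated genes in each mouse, both as log2 minus the non-transgenic mean; points are mice with their numbers and colours are groups. TPPU mice 1 and 4 lie at medians of 1.32 and 1.57 with Ctse at 0.36 and 0.61, while vehicle mouse 1 lies at 1.21 with Ctse at 4.00.

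Within both 5xFAD groups, mice with more Ctse had more of the microglial genes. In the non-transgenic mice, whose Ctse values lay near background, the orders differed: mouse 2, at 32.8, had the lowest plaque-associated median (-0.14). Vehicle mouse 3 was the highest of its group in Ctse and in 19 of 19 plaque-associated genes, against 50.2% of all tested genes. TPPU mouse 3 was likewise the highest in 19 of 19 (46.8% of all tested genes), and TPPU mouse 2 the lowest in 19 of 19 (42.3%). The full order of the 4 mice in both 5xFAD groups was that of Ctse for 33 of 694 other genes, and 20 of these 33 were among the 62 myeloid genes. To leave out the group means, deviations from the own treatment group mean were compared over the 8 5xFAD mice. Ctse was chosen on its values in these mice and the lists with earlier results known, so these correlations are a description, with no p. Spearman's rho of Ctse with the mean log2 level of a list was 0.95 for plaque-associated, homeostatic and pan-myeloid genes alike, and Pearson's r was 0.81, 0.83 and 0.82. Every rho here uses the unresolved order of TPPU mice 1, 2 and 4 in Ctse. Without TPPU mice 2 and 3, the farthest from the median of the scores, r was 0.72, 0.77 and 0.74. For antigen processing genes r was 0.66 and rho 0.74, and r was 0.05 without the same 2 mice. Oligodendrocyte genes gave r 0.59 and rho 0.62, and r was 0.67 without vehicle mice 1 and 2. Neuronal genes gave r -0.42 and rho -0.14, and r was -0.33 without TPPU mouse 3 and vehicle mouse 1. The scaling moved these values: with each array centred on its median, r was -0.84 (rho -0.71) for neuronal genes and 0.76, 0.66 and 0.73 for plaque-associated, homeostatic and pan-myeloid genes (rho 0.90, 0.81 and 0.86). After quantile normalization it was -0.87 (rho -0.55) for neuronal genes and 0.75, 0.74 and 0.67 for the others (rho 0.76, 0.69 and 0.69). On either scale the neuronal relation was thus about as strong in r as those of the microglial lists, in the opposite direction. By rank the neuronal relation was the weaker on both scales. As deposited, its r turned to 0.37 without TPPU mouse 3 alone. The genes of a mouse share 1 scaling factor, and each group has 4 mice, too few for a correlation of its own.

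Gene by gene, the highest Pearson's r within groups was that of Ddx58, the cytosolic RNA sensor RIG-I, whose level is raised by interferon. It was 0.96 over the 8 mice and 0.81 without TPPU mouse 3. By rank, where the order of TPPU mice 1, 2 and 4 in Ctse is not resolved, Ddx58 was not the highest. Its rho was 0.79, against 0.98 for Itgam, Csf1 and Pros1 and 0.95 for Trem2 and Tyrobp. The next were Chek2, a DNA damage kinase (0.93), Itgam (0.93), the surface glycoprotein Cd83 (0.92), Tmcc3 (0.92), Csf1, a growth factor of microglia (0.92), Pros1, which bridges dying cells to phagocytic receptors (0.92), and Plcg2, a phospholipase downstream of Trem2 (0.92). Without TPPU mouse 3, r for these 7 lay between 0.60 (Tmcc3) and 0.98 (Itgam). They were picked as the highest of 694, so no p is given. The median r was 0.80 over the 62 myeloid genes and 0.36 over all 694, and 0.75 and 0.42 without TPPU mouse 3. Ddx58 stood at 90.6, 84.4, 86.0 and 89.7 normalized counts in the non-transgenic mice and at 164, 170.4, 195 and 149 in vehicle-treated 5xFAD mice. TPPU mice 1 to 4 stood at 93.8, 80.0, 149.9 and 88.5. Like Ctse, Ddx58 was thus near the non-transgenic mice in TPPU mice 1, 2 and 4 and within the vehicle range in mouse 3. It rose 1.91-fold between genotypes (limma adjusted p = 0.00348), far less than Ctse differed. Itgam, by comparison, stood at 244, 208, 409 and 279 in TPPU mice 1 to 4, all above the non-transgenic range of 139 to 192. Every TPPU mouse lay above every non-transgenic mouse in 43 of 695 tested genes. In all, 85 of 694 other genes had TPPU mice 1, 2 and 4 under all vehicle-treated 5xFAD mice and mouse 3 not. Among them were 27 of the 62 myeloid genes and 13 of the 26 genes with large differences. The 26 were picked for high levels in the vehicle-treated mice, which by itself favours this pattern.

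The comparison of TPPU with vehicle asked what inhibition of the hydrolase does in 5xFAD mice, and limma called 0 of 695 genes (0%). At an unadjusted p under 0.05 there were 126 genes, 119 lower and 7 higher on TPPU, and the smallest adjusted p was 0.117. Of the 62 other myeloid genes 0 were called, while 58 of the estimates were below 0, with a median of -0.67 against -0.12 over all genes. TPPU mouse 3 decided this count: without it, limma called 39 genes, all lower, 13 of them myeloid. Without vehicle mouse 2 or TPPU mouse 2 it called 1 gene, and without any 1 of the other vehicle or TPPU mice 0. Cst7 differed by -1.72 on the log2 scale (SE 0.77, limma adjusted p = 0.267), Ctss by -0.93 (SE 0.36, 0.217) and Ddx58 by -0.75 (SE 0.19, 0.130). The Cst7 difference is as deposited, with TPPU mouse 2 at 9.60, under 33.5 and so not shown to be above background. Cd74, with a log2 difference of -2.35 (adjusted p = 0.132 by limma), stood at 1180, 362, 609 and 2045 normalized counts on vehicle and 180.1, 70.4, 344 and 178 on TPPU. For Cd74 these groups did not overlap, but the highest TPPU mouse (344) lay just under the lowest vehicle mouse (362). In all, 30 of 695 tested genes had every TPPU mouse under every vehicle-treated 5xFAD mouse.

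Between TPPU-treated 5xFAD and non-transgenic mice limma also called 0 of 695 genes (0%), with 102 at an unadjusted p under 0.05, 95 higher and 7 lower on TPPU. Of the 62 myeloid genes 0 were called, and 59 estimates were above 0, with a median of 0.73 against 0.06 over all genes. Here TPPU mouse 2 decided the count: without it, 60 genes were called, 59 higher and 1 lower, and 36 of the higher ones were myeloid. Plaque-associated genes had a median of 1.40 in this comparison, led by Clec7a at 2.37, and Ctse at 1.25 ranked 22 of 695. Both differences are as deposited, and the non-transgenic values of both genes all lay under 33.5, as did TPPU mouse 2.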

How the data were processed

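Per the labels' protocols, 770 transcripts were quantified in hippocampal RNA. The deposited values of 12 mice, unit signal, are linear counts that the authors scaled to the geometric mean of 10 housekeeping transcripts. The software and any subtraction of background: not given in the sources used here. All values (100% within 0.01) were whole multiples of 1 factor per mouse, from 0.871 to 0.993 in non-transgenic, 0.946 to 1.10 in 5xFAD vehicle and 1.03 to 1.09 in TPPU mice. The Poisson intervals of Ctse took the values divided by these factors as counts, which the sources do not state. No other count model was run. Of 756 symbols, 749 matched current mouse names and 7 matched as synonyms.

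Tests used log2(value + 1). A minimum mean of 20 kept 695 genes and left out 61. All 12 mice entered 1 limma fit (limma 3.58.1, R 4.3.3, mean-dependent prior, 9 residual degrees of freedom), adjusted by Benjamini-Hochberg over 695 genes and tested on simulated data. Genes were called at an adjusted p under 0.05. Correlations used scipy 1.17.1 in Python 3.11.15, and figures matplotlib 3.10.9. Nothing says that mice of a group were independent in litter or cage, so p-values measure the spread between these mice.

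Ctse and the 18 gene lists were chosen with earlier results of these data known. Named were the 6 nearest genes, the 8 with the highest r, all measured cathepsins and related proteases, up to 3 called members (or 1) per list, and Uty, Kdm5d and Ttr; some of these are not printed. Same-numbered mice deviated together with r of -0.37 to 0.39 over 12 pairs. These values alone do not decide whether the numbers pair the mice, and the main fit did not pair them. Alternatives were a pseudocount of 0.1 or of 10, a minimum of 50 or none, 2 rescalings, a replicate block, 2-group fits and leaving out each mouse. Added after seeing the data were leaving out both mice with high Ttr (over 1000), Y-linked status (threshold 200) as a block, a floor of 33.5 under all values, and r without TPPU mouse 3.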

Additional observations from a re-analysis of the deposited data

Results flagged for a closer look

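For the named genes and 6 list scores, 165 groups of 4 mice were examined on the log2 scale. Of these groups, 8 held a mouse far from the other 3. Chance alone gives about 1 in 20, which is much the same share, so the 8 are given as a description. Ctse had 2 of them: TPPU mouse 3 at 479 normalized counts, with a gap to the next mouse of 0.847 of the range of its group, and non-transgenic mouse 3 at 17.9, the lowest of its group (0.898). Tmcc3 was highest in TPPU mouse 3, at 1490 normalized counts, and lowest in vehicle mouse 1, at 1020. Psen2 was lowest in TPPU mouse 4 (327 normalized counts), Epcam in vehicle mouse 2 (18.3), and Ttr was highest in vehicle mouse 1 (4270). The mean log2 level of the homeostatic microglial list was highest in non-transgenic mouse 1, at 9.31.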

How the results depend on the processing

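The Ctse difference kept its sign in all 3 comparisons under every pseudocount, rescaling, floor, block and left-out mouse tried. Without 1 mouse of the compared groups at a time it ran from 4.54 to 5.19 between genotypes, from -4.58 to -3.22 for TPPU minus vehicle and from 0.32 to 1.67 for TPPU minus non-transgenic. Between genotypes 97 to 148 genes were called without 1 mouse, 44 to 47 of them myeloid, and a replicate block on the mouse numbers gave 125 and 47. For TPPU minus vehicle, leaving out 1 of their mice gave 0 to 39 genes and 0 to 13 myeloid genes, and for TPPU minus non-transgenic 0 to 60 and 0 to 36. The replicate block gave 0 genes in both, as did every setting that left out no mouse. Leaving out both mice with high Ttr also gave 0. With values under 33.5 raised to it, the Ctse differences were 4.65, -3.58 and 1.07. The relation of Ctse to the list scores ran, without 1 mouse, from 0.78 to 0.88 for plaque-associated genes, 0.80 to 0.91 for homeostatic, 0.80 to 0.93 for pan-myeloid and -0.93 to 0.37 for neuronal genes. The last turned to 0.37 without TPPU mouse 3. Without centring on the treatment group, which lets the group difference in, r was 0.84, 0.89 and 0.92 for the first 3, and 0.87 for antigen processing. The causes were not tested. In non-transgenic mice and TPPU mice 1, 2 and 4, Ctse came to 20 to 42 after division by the factor of the mouse. Values this low are open to both counting error and background.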

Other observations

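In vehicle mouse 1, which had high Ttr, Ms4a4a, a marker of macrophages at brain borders, stood at 102 normalized counts, against 31.4 to 41.9 in the other 3 mice of its group and 23.9 to 33.7 in non-transgenic mice. It was not called between genotypes (limma adjusted p = 0.207). In the same mouse Itgax stood at 28.4, against 119 to 172 in the other 3, and Ctse at 463, the lowest of its group.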
